A study of Mus musculus with 4 samples.

Results

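Genes of meningeal and perivascular fibroblasts, leaving out the collagen chains, were followed in cells of the Pdgfra lineage from newborn mouse forebrain. The group holds 36 genes, chosen by name as genes that fibroblasts of the brain coverings and of large vessels are known for. Each of the 36 symbols matched 1 row of a table of 54348 rows. Fibroblasts lie in the pia, arachnoid and dura and along the larger vessels of the brain, where they make collagen, proteoglycans and elastic fibres and, in the meninges, retinoic acid. Forkhead and other transcription factors of the head mesenchyme set up these layers before birth. Many of the genes are not restricted to fibroblasts: Sparc is also made by glia and endothelium, and Fn1 by endothelium and macrophages.

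RNA was taken from tdTomato-positive live cells sorted from forebrains at postnatal day 4, after tamoxifen on postnatal days 0 and 1. The fusion group (genotype PdgfraCreER;MN1:BEND2;AI14) had 2 libraries, and the control group (genotype PdgfraCreER;AI14) had 2. Both groups carried PdgfraCreER, a recombinase that tamoxifen switches on in Pdgfra-expressing cells, and AI14, which then makes the red protein tdTomato. MN1:BEND2, a fusion gene found in astroblastoma, was carried by the fusion group and not by the control group. Pdgfra is expressed by oligodendrocyte precursors and also by fibroblasts, so a sort on this lineage can hold both. The pia was peeled off before the tissue was digested, per the labels' protocols.

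Levels are TPM, transcripts per 1000000, a share of each library's transcripts corrected for transcript length, so levels of different genes can be set side by side while the read depth stays unknown. Mitochondrially encoded genes held 48.7% and 26.2% of TPM in the fusion libraries, against 10.1% and 7.30% in the control libraries, and 9050 and 10017 genes reached 1 TPM in the fusion libraries, against 12772 and 13219 in the control libraries. The Y-linked genes Eif2s3y, Ddx3y, Uty and Kdm5d summed to 0.281 and 0.190 TPM in the fusion libraries and to 156 and 157 TPM in the control libraries. Sex, mitochondrial share and genotype therefore cannot be told apart in the 4 libraries. Across the 12871 genes with at least 1 TPM in 2 or more libraries, the median log2 change, fusion minus control, was -1.41. Median ratio scaling of the libraries brought it to -0.15. Changes below are on deposited TPM unless rescaling, by the median ratio, is named.

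On deposited TPM the fibroblast genes did not move as 1 block, whereas after rescaling 25 of the 28 tested had a positive change. Mesenchymal transcription factors and a few matrix genes, led by Mgp, were higher in the fusion libraries, while the abundant fibroblast proteoglycans and the transporters did not pass the test on deposited TPM in either direction. The test found 9 of the 28 tested members higher and 2 lower, and 17 did not pass (limma, Benjamini-Hochberg adjusted p under 0.05 over all genes tested). Among all genes tested, 4.95% rose and 51.3% fell. For the tested members the median log2 change was 0.64, beside -1.41 for all genes tested.

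How a gene entered the test bears on these counts. Of the 28 tested members, 21 reached 1 TPM in libraries of both groups, and 4 of these rose and 1 fell. Another 5 members (Foxc1, Foxc2, Foxd1, Zic1 and Thbs2) entered through the fusion libraries alone, and 5 of these 5 rose. They reached 1 TPM only in fusion libraries, so the filter itself favoured a rise. Efemp1 and Mfap4 entered through the control libraries alone. The other 8 members did not enter. Shares over all genes that entered by each route were not computed, so the counts by route have no background. When no filter was set and all 36 were tested among 24923 genes, 7 rose (Mgp, Fn1, Foxc1, Foxc2, Foxd1, Zic1 and Mfap5), 0 fell and 29 did not pass. In that test 1.42% of all genes rose and 18.4% fell.

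For 12 of the 28 tested members the lower fusion value exceeded the higher control value, and for 5 the reverse held. Over all genes tested these shares were 10.2% and 71.1%. With libraries rescaled, 14 members rose, 0 fell and 14 did not pass, where 14.3% of all genes rose and 18.6% fell, and the members' median change was 2.17. The 9 members that rose on deposited TPM, Mgp, Fn1, Foxd1, Zic1, Mfap5, Foxc2, Foxc1, Tbx18 and Thbs2, also passed after rescaling, with changes of 1.79 to 9.47. Without control replicate 1, 0 members rose, and without control replicate 2, 1 member (Mgp) rose. These 2 tests take the spread of the single control library from the fusion pair.

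**Figure D1:**
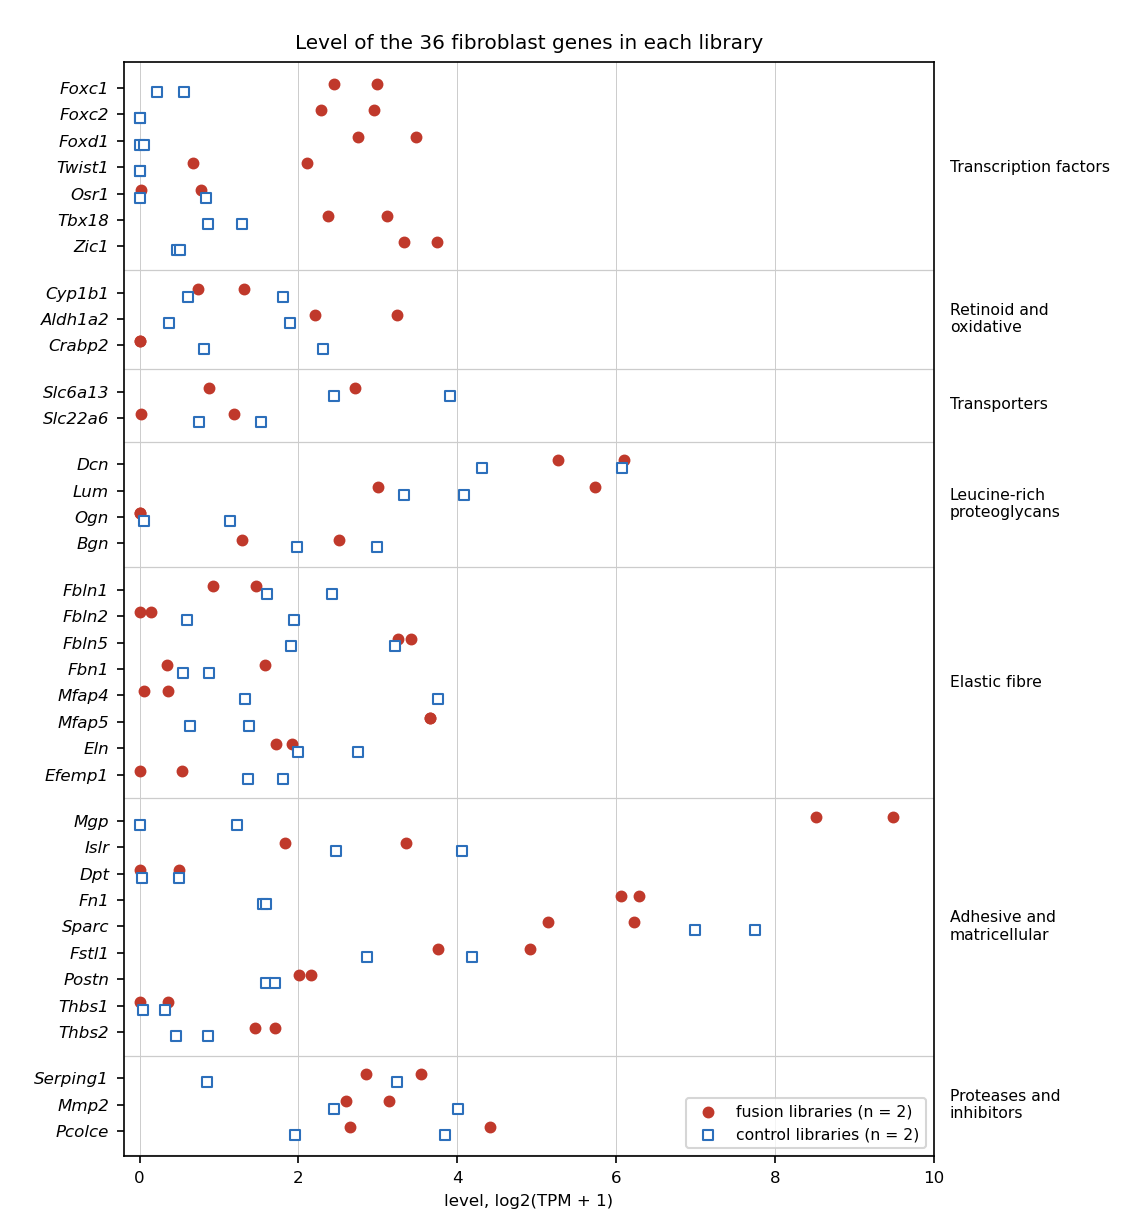
Level of each of the 36 fibroblast genes as log2(TPM + 1) in the 2 fusion libraries (filled circles) and the 2 control libraries (open squares), by role. Foxc1, Foxc2, Foxd1, Tbx18 and Zic1 had both fusion libraries above both control libraries. The same held for 12 of the 28 tested members and for 10.2% of all genes tested, and the reverse for 71.1%. Mgp, at 364 and 717 TPM in the fusion libraries, lay furthest from its control values.

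Among the 7 transcription factors, 5 rose and 2 were too low to test, where 4.95% of all genes tested rose. Foxc1, Foxc2, Foxd1 and Zic1 entered the test through the fusion libraries alone, where they were high, and Tbx18 through both groups. With no filter Tbx18 and Twist1 did not pass (adjusted p = 0.0906 and 0.176, limma). The summed level of the 7 transcription factors was 34.0 and 41.9 TPM in the fusion libraries, against 1.36 and 3.16 TPM in the control libraries. Foxc1 and Foxc2 are forkhead factors needed for the meninges and the skull, and Foxd1 is a forkhead factor of stromal and pericyte precursors. Foxd1 (chromosome 13, 98354242 to 98359305, GRCm38) had 5.72 and 10.1 TPM in the fusion libraries, against 0 and 0.0424 TPM in the control libraries, a log2 change of 3.08 ± 0.40 (SE, adjusted p = 0.00443, limma). Foxc2 (chromosome 8, 121116171 to 121118895) had 3.88 and 6.76 TPM in the fusion libraries and 0 in both control libraries, a log2 change of 2.62 ± 0.36 (SE, adjusted p = 0.00485, limma). Foxc1 (chromosome 13, 31806633 to 31812476) had 4.47 and 6.93 TPM in the fusion libraries, against 0.163 and 0.468 TPM in the control libraries, a log2 change of 2.33 ± 0.38 (SE, adjusted p = 0.00700, limma). The 3 forkhead genes thus ranged from 3.88 to 10.1 TPM in the fusion libraries and reached at most 0.468 TPM in a control library, with no overlap. Foxc2 is overlapped on its own strand by the annotated gene Gm20388. No deposited row carried that symbol, so any sharing of reads between them could not be checked.

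Zic1, a zinc finger factor of the meninges and of some neural precursors, had 12.5 and 9.08 TPM in the fusion libraries, against 0.384 and 0.420 TPM in the control libraries. It lies on chromosome 9 (91358058 to 91365810) and overlaps Zic4 on the other strand. Its log2 change was 3.05 ± 0.41 (SE, adjusted p = 0.00457, limma). Zic4 had 3.67 and 2.31 TPM in the fusion libraries, against 0.761 and 2.68 TPM in the control libraries, and no strand-specific kit is named in the labels. Tbx18 (chromosome 9, 87702800 to 87731260), a T-box factor of pericytes and vascular smooth muscle, had 4.16 and 7.69 TPM in the fusion libraries, against 0.815 and 1.45 TPM in the control libraries (log2 change 1.67 ± 0.46, SE, adjusted p = 0.0294, limma). Its groups did not overlap, though it was detected in both control libraries, unlike Foxc2.

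Twist1, a helix-loop-helix factor of the cranial mesenchyme, had 3.32 and 0.600 TPM in the fusion libraries and 0 in both control libraries. Osr1, a zinc finger factor of mesodermal tissue, had 0.00999 and 0.709 TPM in the fusion libraries, against 0 and 0.780 TPM in the control libraries. Twist1 thus lay above the control libraries in both fusion libraries without entering the test, and Osr1 was near 0 in 1 library of each group. Without control replicate 1 or without control replicate 2 none of the 5 passed, with adjusted p of 0.107 to 0.255 (limma). The 5 log2 changes stayed positive in each setting in which the gene was tested, from 0.82 to 6.01.

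The sequences at the starts of these genes are printed because they are the members that moved together. RefSeq windows on GRCm38.p6, from 250 bases before to 50 after the annotated start, were held for 23 of the 36 members, and among the 5 factors that rose for Foxc1, Foxd1, Tbx18 and Zic1. Each is given on its gene's strand, 5′ to 3′. Capitals mark 4 motifs on either strand: the CCAAT box (CCAAT), the GC box (GGGCGG), the TATA box (TATAAA) and a forkhead core (TGTTTAC). Foxc1 is at chr13:31806396-31806695 (plus strand), Foxd1 at chr13:98353995-98354294 (plus strand), Tbx18 at chr9:87731211-87731510 (minus strand) and Zic1 at chr9:91365719-91366018 (minus strand).
Foxc1: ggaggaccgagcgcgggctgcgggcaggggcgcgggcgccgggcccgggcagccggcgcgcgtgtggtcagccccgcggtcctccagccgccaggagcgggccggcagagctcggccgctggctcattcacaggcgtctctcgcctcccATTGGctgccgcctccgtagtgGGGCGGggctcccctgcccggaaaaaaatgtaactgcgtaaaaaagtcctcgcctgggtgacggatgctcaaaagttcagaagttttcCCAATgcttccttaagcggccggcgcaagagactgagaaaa
Foxd1: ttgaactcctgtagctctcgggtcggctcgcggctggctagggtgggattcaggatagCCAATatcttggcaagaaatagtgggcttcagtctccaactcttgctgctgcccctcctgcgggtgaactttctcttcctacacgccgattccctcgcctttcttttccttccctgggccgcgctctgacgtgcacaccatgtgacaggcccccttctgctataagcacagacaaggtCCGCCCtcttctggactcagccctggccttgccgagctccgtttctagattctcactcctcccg
Tbx18: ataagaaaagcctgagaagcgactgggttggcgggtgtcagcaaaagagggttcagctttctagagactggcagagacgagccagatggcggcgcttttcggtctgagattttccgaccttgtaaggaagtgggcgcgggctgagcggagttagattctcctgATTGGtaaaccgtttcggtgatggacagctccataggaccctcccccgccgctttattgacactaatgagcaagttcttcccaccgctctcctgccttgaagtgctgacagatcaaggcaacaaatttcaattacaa
Zic1: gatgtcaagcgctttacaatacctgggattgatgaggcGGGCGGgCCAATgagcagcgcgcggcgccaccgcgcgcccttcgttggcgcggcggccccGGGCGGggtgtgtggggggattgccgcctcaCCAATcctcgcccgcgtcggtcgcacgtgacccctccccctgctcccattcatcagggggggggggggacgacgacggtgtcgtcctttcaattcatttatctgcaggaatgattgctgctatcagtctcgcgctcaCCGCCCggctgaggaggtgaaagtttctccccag

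A CCAAT box was found in each of the 4 windows and in 37.4% of 32851 windows of the same length over the genome. Foxc1, Foxd1 and Zic1 also held a GC box, as did 35.7% of all windows. No TATA box or forkhead core was found in the 4, where 13.6% and 3.65% of all windows held one. Over the 23 members with a window, 11 held a CCAAT box, 14 a GC box, 5 a TATA box and 0 a forkhead core. A member was counted if any of its windows held the motif, and Slc6a13, Fbln1, Fbln5 and Postn had several. These counts are therefore per gene, unlike the shares of windows above. The windows of Foxc1 and Zic1 had 32 and 31 CpG dinucleotides, and those of Foxd1 and Tbx18 had 15 each, where the median over all windows was 7. These matches describe letters in a window and say nothing of binding.

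Of the 3 genes of retinoid and oxidative metabolism, 2 were tested and neither passed. Aldh1a2, the enzyme that makes retinoic acid in the meninges, had 3.60 and 8.47 TPM in the fusion libraries, against 0.298 and 2.72 TPM in the control libraries. The groups did not overlap, and the log2 change was 1.59 ± 0.68 (SE, adjusted p = 0.0987, limma). After rescaling it rose by 2.72 (adjusted p = 0.0240, limma). Crabp2, which carries retinoic acid to the nucleus, was at 0 in both fusion libraries and at 0.758 and 3.97 TPM in the control libraries. Cyp1b1, a cytochrome that oxidises retinoids and steroids, had 1.48 and 0.661 TPM in the fusion libraries and 0.529 and 2.50 TPM in the control libraries, with overlap.

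Other genes of the retinoic acid pathway, 16 outside the list of members, had 9 tested, of which 3 rose and 1 fell, and after rescaling 4 rose and 0 fell. Aldh1a3, a related enzyme, had 4.53 and 4.83 TPM in the fusion libraries, against 0.528 and 1.68 TPM in the control libraries (log2 change 1.49, adjusted p = 0.0352, limma). Crabp1, a second carrier of retinoic acid, had 6.73 and 5.37 TPM in the fusion libraries, against 1.53 and 1.20 TPM in the control libraries (log2 change 1.57, adjusted p = 0.0229, limma). Cyp26b1, which breaks retinoic acid down, had 1.17 and 1.18 TPM in the fusion libraries and 0 in both control libraries (log2 change 1.12, adjusted p = 0.00765, limma). Rxrg, for a retinoid receptor, fell, with 1.71 and 1.61 TPM in the fusion libraries against 7.84 and 10.1 TPM in the control libraries, and did not pass after rescaling. The median log2 change of the 9 was 0.76.

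The 2 transporters did not pass. Slc6a13, a GABA transporter of meningeal and perivascular fibroblasts, had 0.827 and 5.55 TPM in the fusion libraries, against 4.45 and 14.0 TPM in the control libraries. Slc22a6, which carries organic anions, had 0.00956 and 1.28 TPM in the fusion libraries and 0.686 and 1.89 TPM in the control libraries. Both overlapped between groups, and in both groups 1 library was several times the other. The log2 change of Slc6a13, -1.39 (adjusted p = 0.205, limma), lay 0.02 above the median change of all genes.

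The small leucine-rich proteoglycans, which bind collagen fibrils, had no call on deposited TPM, with Dcn and Lum at the highest levels of the 4. Dcn, for decorin, had 37.6 and 67.6 TPM in the fusion libraries, against 18.9 and 66.5 TPM in the control libraries (log2 change 0.49 ± 0.69, SE, adjusted p = 0.567, limma). Lum, for lumican, had 7.00 and 52.0 TPM in the fusion libraries, against 9.05 and 16.0 TPM in the control libraries (log2 change 0.66 ± 0.95, SE, adjusted p = 0.579, limma). The 2 control values of Dcn fell at 18.9 and at 66.5 TPM, so the control libraries alone spanned nearly the whole range of the gene. After rescaling Dcn was higher by 2.21 (adjusted p = 0.0408, limma) and Lum had a change of 2.28 that did not pass (adjusted p = 0.0923).

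Bgn, for biglycan, had 1.44 and 4.70 TPM in the fusion libraries, against 2.95 and 6.93 TPM in the control libraries, with overlap. Ogn, for osteoglycin, was listed at 0 in both fusion libraries and at 0.0433 and 1.21 TPM in the control libraries. It was not tested. Of 9 other genes of this family, 1 was tested, and it did not pass on deposited TPM. This was Prelp, which passed after rescaling (adjusted p = 0.0401, limma), with 1.74 and 3.76 TPM in the fusion libraries and 0.938 and 2.23 TPM in the control libraries. Fibroblast proteoglycans were thus present in both groups, as were Islr and Slc6a13, and on deposited TPM no difference among them passed.

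**Figure D2:**
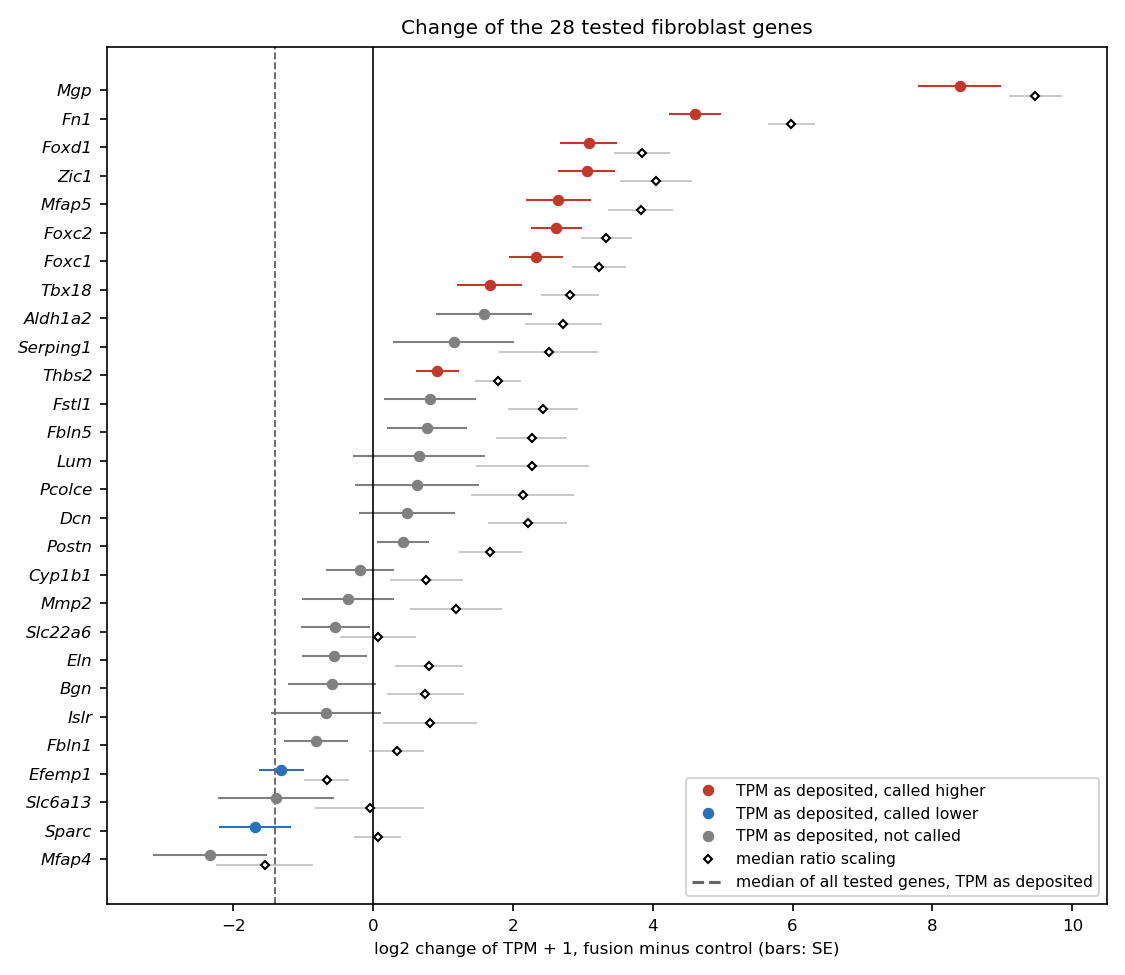
Log2 change of TPM + 1, fusion minus control, with its SE, for the 28 tested members: filled circles for TPM as deposited and open diamonds after median ratio scaling, with a dashed line at the median of all tested genes (-1.41). Mgp, Fn1 and the transcription factors lie to the right of 0 on both scales, while Sparc crosses 0 with rescaling.

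Genes of the elastic fibre went in both directions. Of 8, 6 were tested, 1 rose, 1 fell and 4 did not pass. Mfap5, a glycoprotein of fibrillin microfibrils, had 11.6 and 11.7 TPM in the fusion libraries, against 0.556 and 1.60 TPM in the control libraries, a log2 change of 2.65 ± 0.47 (SE, adjusted p = 0.00810, limma). It lies on chromosome 6 (122505845 to 122529290). Mfap4, another microfibril-associated protein, lay the other way, with 0.0357 and 0.282 TPM in the fusion libraries, against 1.51 and 12.5 TPM in the control libraries. The groups of Mfap4 did not overlap, and its change of -2.34 ± 0.81 did not pass (SE, adjusted p = 0.0568, limma). Mfap4 overlaps Mapk7 on the other strand, which had 1.62 and 2.41 TPM in the fusion libraries and 7.12 and 19.2 TPM in the control libraries.

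Efemp1 (chromosome 11, 28853204 to 28926743), a fibulin of basement membranes and elastic tissue, had 0 and 0.453 TPM in the fusion libraries, against 1.58 and 2.49 TPM in the control libraries. Its change was -1.31 ± 0.32 (SE, adjusted p = 0.0202, limma), which is 0.09 above the median of all genes, and it did not pass after rescaling (-0.66, adjusted p = 0.182). Fbln5, which ties elastin to cells, had 8.57 and 9.68 TPM in the fusion libraries, against 2.76 and 8.33 TPM in the control libraries. It did not pass on deposited TPM (adjusted p = 0.294, limma), and after rescaling it was higher by 2.27 (adjusted p = 0.0310). Fbln1 had 0.904 and 1.77 TPM in the fusion libraries, against 2.03 and 4.36 TPM in the control libraries, and Eln, for elastin itself, had 2.79 and 2.29 TPM in the fusion libraries, against 2.99 and 5.75 TPM in the control libraries. Neither Fbln1 nor Eln overlapped between groups, and neither passed.

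Fbln2 had 0.104 and 0 TPM in the fusion libraries, against 0.507 and 2.84 TPM in the control libraries. Fbn1, for fibrillin of the microfibril core, had 0.272 and 1.98 TPM in the fusion libraries and 0.839 and 0.456 TPM in the control libraries. Neither was tested. Among 13 other elastic fibre genes, 9 were tested, 1 rose and 4 fell, and after rescaling 1 rose and 2 fell. Lox, which crosslinks elastin and collagen, had 50.2 and 40.7 TPM in the fusion libraries, against 0.840 and 1.30 TPM in the control libraries (log2 change 4.49, adjusted p = 0.00367, limma). Mfap2, the close relative of Mfap5, went the opposite way to it, with 21.5 and 9.50 TPM in the fusion libraries against 429 and 507 TPM in the control libraries (log2 change -4.93, adjusted p = 0.00371, limma). Efemp2 and Ltbp4 fell too, by 3.34 and 3.01 on the log2 scale. After rescaling Ltbp4 passed (adjusted p = 0.0116, limma) and Efemp2 did not (adjusted p = 0.199).

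The adhesive and matricellular proteins held the largest rises of the group. Mgp, for a matrix protein that keeps cartilage and vessel walls from calcifying, lies on chromosome 6 (136872435 to 136875823). It had 364 and 717 TPM in the fusion libraries, against 0 and 1.34 TPM in the control libraries, a log2 change of 8.39 ± 0.59 (SE, adjusted p = 0.00367, limma). Mgp alone made up 59.2% and 61.9% of the summed TPM of the 36 genes in the fusion libraries, against 0% and 0.300% in the control libraries. Fn1, for fibronectin, lies on chromosome 1 (71585520 to 71653200) and had 65.7 and 77.1 TPM in the fusion libraries, against 1.93 and 2.01 TPM in the control libraries. Its log2 change was 4.61 ± 0.38 (SE, adjusted p = 0.00367, limma). For Fn1 the libraries of each group lay close together and the groups far apart. Without control replicate 1, Mgp and Fn1 had adjusted p of 0.0505 and 0.0547 (limma). Apol7d, antisense to Fn1, had 2.49 and 4.38 TPM in the fusion libraries and 0 in both control libraries.

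Sparc, a collagen-binding protein, was the member with the highest level in the control libraries and was lower in the fusion libraries. It lies on chromosome 11 (55394500 to 55423183) and had 34.4 and 73.7 TPM in the fusion libraries, against 127 and 214 TPM in the control libraries, a log2 change of -1.69 ± 0.51 (SE, adjusted p = 0.0390, limma). Its groups did not overlap. Its change lay 0.28 below the median of all genes, and with rescaled libraries it turned to 0.06 (adjusted p = 0.903, limma). Without fusion replicate 1 it did not pass (adjusted p = 0.0632, limma). Sparc made up 5.60% and 6.36% of the members' summed TPM in the fusion libraries, against 62.5% and 47.8% in the control libraries.

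Thbs2 (chromosome 17, 14665500 to 14694235), a thrombospondin that curbs vessel growth, had 1.73 and 2.27 TPM in the fusion libraries, against 0.815 and 0.370 TPM in the control libraries. Its log2 change of 0.92 ± 0.31 was just past the threshold (SE, adjusted p = 0.0498, limma) and did not pass with a pseudocount of 5 (adjusted p = 0.0501) or in 9 further settings. Thbs1, its relative, was near 0 in each library, at 0.282 and 0.00505 TPM in the fusion libraries and 0.248 and 0.0292 TPM in the control libraries. Postn, for periostin, had 3.46 and 3.01 TPM in the fusion libraries, against 2.03 and 2.27 TPM in the control libraries. The groups of Postn did not overlap, and it did not pass on deposited TPM (adjusted p = 0.369, limma).

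Fstl1, a secreted glycoprotein of mesenchyme, had 12.6 and 29.2 TPM in the fusion libraries and 6.30 and 17.1 TPM in the control libraries, with overlap. After rescaling Fstl1 and Postn were higher by 2.44 and 1.68 (adjusted p = 0.0253 and 0.0466, limma). Islr, a marker of perivascular fibroblasts, had 2.57 and 9.21 TPM in the fusion libraries, against 4.56 and 15.7 TPM in the control libraries. Dpt, for dermatopontin, had at most 0.416 TPM in a fusion library and 0.410 TPM in a control library. For Islr, as for Slc6a13, replicate 2 was well above replicate 1 in each group, and the groups overlapped.

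The 3 genes of proteolysis did not pass. Mmp2, a gelatinase, had 7.82 and 5.05 TPM in the fusion libraries, against 4.43 and 15.1 TPM in the control libraries. Pcolce, which speeds the trimming of procollagen, had 5.27 and 20.2 TPM in the fusion libraries, against 2.89 and 13.3 TPM in the control libraries. Serping1, for the inhibitor of complement C1, had 6.20 and 10.7 TPM in the fusion libraries, against 0.805 and 8.47 TPM in the control libraries. On deposited TPM each overlapped between the groups. After rescaling Mmp2, Pcolce and Serping1 changed by 1.19, 2.14 and 2.51, and none passed (adjusted p = 0.232, 0.0860 and 0.0534, limma). After quantile normalization Serping1 alone of the 3 passed (adjusted p = 0.0493, limma). Of 14 other thrombospondins, metalloproteinases and their inhibitors, 11 were tested, 1 rose and 3 fell, and after rescaling 2 rose and 1 fell. Mmp9 had 1.39 and 5.53 TPM in the fusion libraries and 0 in both control libraries, and Timp3 and Timp4, inhibitors of these proteases, fell by 3.30 and 3.23 on the log2 scale. After rescaling Timp4 passed (adjusted p = 0.0200, limma) and Timp3 did not (adjusted p = 0.105).

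**Figure D3:**
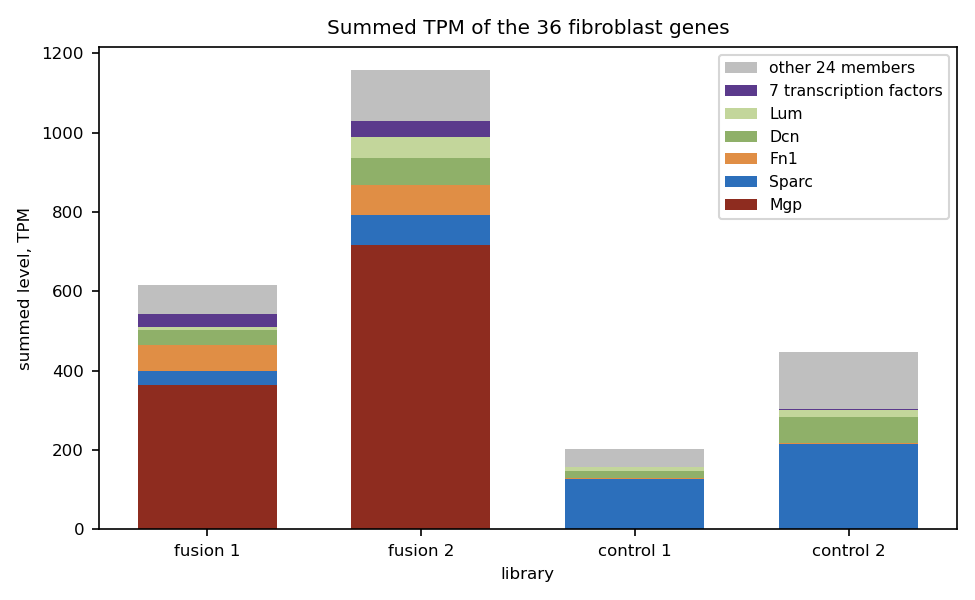
Summed TPM of the 36 fibroblast genes in each library, split into Mgp, Sparc, Fn1, Dcn, Lum, the 7 transcription factors and the other 24 members. Mgp fills 59.2% and 61.9% of the bars of the fusion libraries, where the sums were 615 and 1158 TPM, and Sparc 62.5% and 47.8% of those of the control libraries, where they were 202 and 447 TPM.

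The summed level of the members was 615 and 1158 TPM in the fusion libraries, against 202 and 447 TPM in the control libraries. Without Mgp the sums were 251 and 441 TPM in the fusion libraries and 202 and 446 TPM in the control libraries. Without Mgp and Sparc the sums were 216 and 367 TPM in the fusion libraries and 75.8 and 232 TPM in the control libraries. Both pairs of sums overlapped between groups on deposited TPM. Sums were not taken on rescaled levels, where 25 of the 28 tested members had a positive change. In the fusion libraries 24 and 26 members reached 1 TPM, and in the control libraries 16 and 26.

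The libraries of a group differed from each other in these genes. In the fusion group, 25 of the 36 members were higher in replicate 2 than in replicate 1, and in the control group 31 of 36. Over the 28 tested members, the median log2 difference, replicate 2 minus replicate 1, was 0.68 in the fusion group and 0.80 in the control group, beside 0.30 and 0.15 over all genes tested. Mfap4, Serping1, Pcolce and Dcn had the widest gaps in the control group. In bulk libraries, fewer cells of a type and less RNA per cell cannot be told apart.

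**Figure D4:**
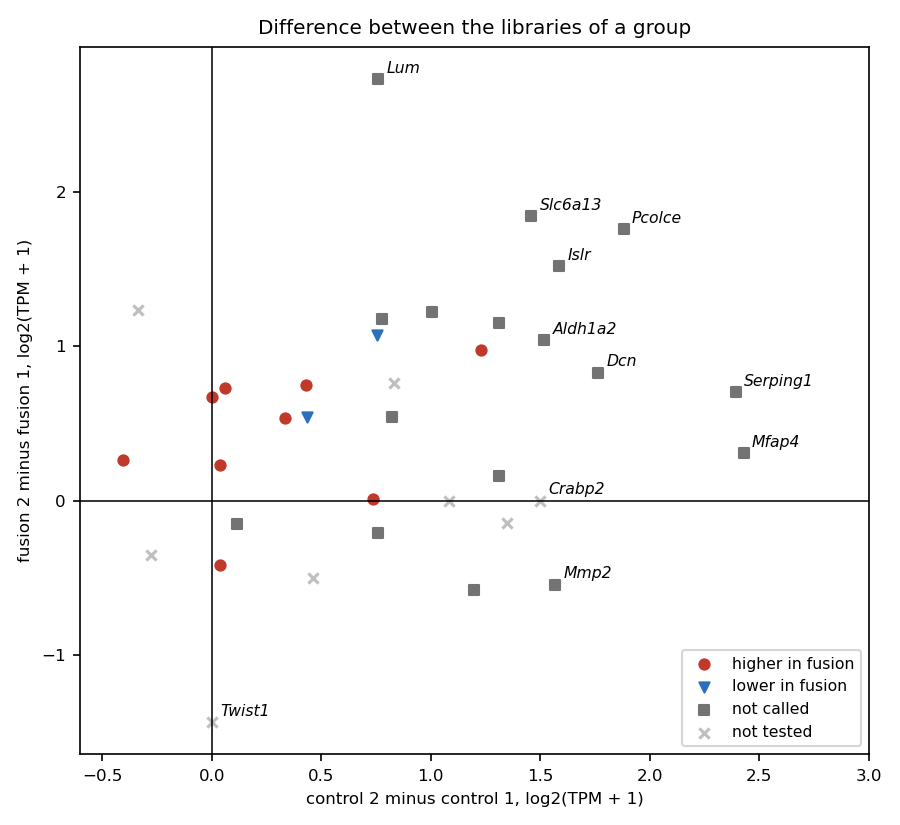
Difference of log2(TPM + 1) between the libraries of each group for the 36 members, fusion on the vertical and control on the horizontal axis. Dcn, Islr, Pcolce and Slc6a13 were higher in replicate 2 of both groups, and Serping1 and Mfap4 had the widest gaps between the control libraries.

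Of 23 other mesenchymal transcription factors, 6 were tested, 2 rose and 0 fell, and after rescaling 3 rose and 0 fell. Twist2, the relative of Twist1, had 3.88 and 2.25 TPM in the fusion libraries, against 0 and 0.0371 TPM in the control libraries (log2 change 1.97, adjusted p = 0.00637, limma). Foxf2, a forkhead factor of brain pericytes, had 3.59 and 4.40 TPM in the fusion libraries, against 0.726 and 0 TPM in the control libraries (log2 change 1.92, adjusted p = 0.0124, limma). Tcf21, Osr2 and Tbx20 were listed at 0 in all 4 libraries. Of 33 other fibroblast genes, 15 were tested, and 2 rose and 6 fell, with a median log2 change of -0.51. After rescaling 5 rose and 2 fell, with a median of 0.83. Among the 8 that passed, Gpc3, Alpl, Htra3 and Pdgfrl had the largest changes, with log2 changes of -2.87, -2.73, -2.66 and -2.57. Of these, Alpl and Htra3 also passed after rescaling. The 2 that rose, Gjb2 and Bicc1, had log2 changes of 2.07 and 1.83. Both also passed after rescaling (adjusted p = 0.0123 and 0.0138, limma).

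Markers of other cell types were read beside these results. Over all genes tested, 4.95% rose and 51.3% fell on deposited TPM, and 14.3% rose and 18.6% fell after rescaling. Pericyte and smooth muscle markers had 3 of 14 tested and 0 called, with sums of 2.09 and 90.4 TPM in the fusion libraries and 13.4 and 18.6 TPM in the control libraries. Of the 90.4 TPM in fusion replicate 2, 62.0 TPM were Higd1b, which was listed at 0 in fusion replicate 1. Myl9, of the contractile apparatus, had 0.195 and 5.36 TPM in the fusion libraries and 7.95 and 14.3 TPM in the control libraries. Rgs5, Abcc9 and Kcnj8 had 14.0, 3.43 and 2.42 TPM in fusion replicate 2, against 0.724, 0.914 and 0 TPM in fusion replicate 1. In the control libraries they reached at most 2.06 TPM. Of the 14 markers, 10 were higher in fusion replicate 2 than in replicate 1, as were 62.1% of all genes tested. Of the smooth muscle genes, Acta2 had 0 and 1.14 TPM in the fusion libraries and 0.744 and 0.634 TPM in the control libraries. Cnn1 was at 0 in all 4 libraries. Myh11 was at 0 in both fusion libraries and at 0.0511 and 0 TPM in the control libraries. Endothelial markers had 3 of 13 tested, 1 higher and 1 lower, with sums of 5.19 and 10.1 TPM in the fusion libraries and 11.97 and 24.5 TPM in the control libraries. Of these sums Slc2a1 held 1.27 and 0.658 TPM in the fusion libraries, and 8.97 and 17.4 TPM in the control libraries. Cdh5 rose and Slc2a1 fell, and after rescaling Cdh5 passed (adjusted p = 0.0206, limma) and Slc2a1 did not (adjusted p = 0.104). Egfl7 had 0.571 and 3.59 TPM in the fusion libraries and 1.64 and 5.25 TPM in the control libraries. Tek had 0 and 3.55 TPM in the fusion libraries and Flt1 0.411 and 0.0512 TPM, and both were below 0.05 TPM in each control library. Tie1, Emcn and Slco1a4 were at 0 in both fusion libraries and reached at most 0.0669 TPM in a control library, so that they were at or near 0 in both groups.

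Cartilage and bone markers had 7 of 13 tested, 1 higher and 2 lower. Their sums were 23.1 and 36.4 TPM in the fusion libraries and 42.8 and 50.2 TPM in the control libraries. Sox9, also listed among the astrocyte markers, held 14.7 and 13.4 TPM of the fusion sums and 25.4 and 25.5 TPM of the control sums. Col2a1, for cartilage collagen, rose (6.58 and 11.2 TPM in the fusion libraries, against 0 and 0.195 TPM in the control libraries), while Bglap and Ibsp, of bone, were at 0 in all 4 libraries. Runx2, Sp7, Matn3 and Comp were at 0 in both fusion libraries and at most 0.540 TPM in a control library. Alpl and Acan fell, and after rescaling Alpl passed (adjusted p = 0.0139, limma) and Acan did not (adjusted p = 0.0999). Macrophage and microglia markers had 9 of 13 tested, 3 higher and 1 lower, with sums of 168 and 242 TPM in the fusion libraries and 79.8 and 24.3 TPM in the control libraries. Tyrobp, Aif1 and Ctss rose, and P2ry12, a microglial receptor, fell and was at 0 in both fusion libraries. Tyrobp alone held 105 and 116 TPM of the fusion sums, and 16.6 and 7.66 TPM of the control sums. Of the 13 markers, 5 had both fusion libraries above both control libraries, and 5 overlapped. The other 3, C1qa, Cx3cr1 and P2ry12, had both fusion libraries below both control libraries. After rescaling 4 of these markers rose and 0 fell, and P2ry12 did not pass (adjusted p = 0.0504, limma). Choroid plexus and epithelial markers had 2 of 10 tested and 1 higher, with sums of 108 and 18.6 TPM in the fusion libraries and 3.39 and 6.71 TPM in the control libraries. Ttr made up 107 and 15.4 TPM of the sums in the fusion libraries, and Kl, Folr1, Aqp1, Krt8, Cdh1 and Clic6 were at 0 in both. Folr1 and Krt8 were at 0 in the control libraries too, and the others reached at most 0.232 TPM there. Oligodendrocyte precursor markers, with 12 of 12 tested, had 0 higher and 8 lower, where 51.3% of all genes tested fell. They summed to 475 and 612 TPM in the fusion libraries and 1366 and 1771 TPM in the control libraries. None of them was at 0 in a library. After rescaling 1 of the 12 rose and 1 fell, with a median change of -0.26, where 14.3% of all genes rose and 18.6% fell. The part of other cell types in the changes of the fibroblast genes was not tested.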

How the data were processed

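The authors deposited TPM for 54348 rows in 4 libraries, each summing to 1000000. Per the labels' protocols, a full-length single-cell kit made the cDNA, read from both ends. Per the submitters' processing notes, Trimmomatic 0.39 and Salmon 1.8.0 were used, with GRCm38 and mm10 as builds. The sources used here do not give the annotation release. TPM keeps no depth, so counting intervals are not given.

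The columns were matched to the libraries by genotype and replicate number. Whether replicate libraries are different mice is not labelled, so a p-value reflects only library-to-library spread, possibly technical. Genes reaching 1 TPM in 2 or more libraries were compared as log2(TPM + 1), a scale that understates changes of low genes, with limma 3.58.1 in R 4.3.3 (trend, 2-sided, Benjamini-Hochberg over the 12871 genes tested, threshold 0.05). The members, the lists of other genes and the rule for named genes (members by role, and from each other list up to 4 passing genes of largest change or the 2 of highest mean) were chosen with earlier results of these data known. Median ratio scaling used the 10965 tested genes above 0 in every library. Other alternatives were pseudocounts, filters, quantile normalization, TPM without mitochondrially encoded genes, a fit with no trend, a robust fit, a block on replicate number and the omission of each library. Coordinates came from GENCODE M21 (GRCm38), where 36 of 36 members matched by identifier, and promoter windows from RefSeq (GRCm38.p6).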

Additional observations from a re-analysis of the deposited data

How the results depend on the processing

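Of the 28 tested members, 9 rose and 2 fell on deposited TPM, with a median change of 0.64. With a mean of at least 5 TPM only 14 members were tested, of which 4 rose and 1 fell. With no filter 36 were tested, of which 7 rose and 0 fell. With a pseudocount of 0.1 7 rose and 1 fell, and without mitochondrially encoded genes 9 and 1. After median ratio scaling 14 rose and 0 fell (median 2.17), and after quantile normalization 15 and 0 (median 2.17). Leaving out 1 library gave 0 to 9 that rose, 0 to 2 that fell and medians of 0.035 to 1.20. Over all genes, where 637 of 12871 rose and 6606 fell, 353 of 24923 rose with no filter. With a mean of at least 5 TPM 405 of 7688 rose, and without mitochondrially encoded genes 978 of 12854. After rescaling 1846 rose and 2396 fell, and after quantile normalization 1948 and 1955. Leaving out 1 library gave 14 to 1084 that rose and 1025 to 7987 that fell. Over all genes the lowest of these counts came without a control library, and the cause was not tested.

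Changes of sign fell on members without a call, on Sparc (0.063 after median ratio scaling) and on the markers Slc1a2, Aqp4 and Higd1b. After median ratio scaling and quantile normalization Islr changed by 0.82 and 0.85, Fbln1 by 0.34 and 0.53, Slc22a6 by 0.070 and 0.58, Bgn by 0.74 and 0.82, Mmp2 by 1.19 and 1.21, Eln by 0.80 and 0.87 and Cyp1b1 by 0.76 and 1.05. After quantile normalization Slc6a13 changed by 0.045, Slc1a2 by 0.014 and Aqp4 by 0.11. Without mitochondrially encoded genes Mmp2 changed by 0.16 and Cyp1b1 by 0.16. Leaving out 1 library gave ranges of -0.39 to 1.37 for Dcn, -0.71 to 2.02 for Lum, -1.47 to 0.12 for Islr, -1.13 to 0.049 for Slc22a6, -0.046 to 2.35 for Serping1, -1.20 to 0.027 for Bgn, -1.14 to 0.43 for Mmp2, -0.31 to 1.57 for Pcolce, -0.79 to 0.41 for Cyp1b1 and -1.17 to 4.81 for Higd1b. The cause was not tested.

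The replicate numbers are shared between groups by name only. With the replicate number as a block, 9 members rose and 3 fell, and over all genes 642 rose and 6978 fell. The deviations of same-numbered libraries had a correlation of -0.040 across 12871 genes. Depth is unknown, so limits from counting cannot be given.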

Other observations

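Genes of TGF-beta signalling, the pathway that drives matrix synthesis in fibroblasts, moved in both directions on deposited TPM. Of 17, 10 were tested, 2 rose and 3 fell (limma), with a median log2 change of -0.63. Over all genes tested 4.95% rose and 51.3% fell. After median ratio scaling 4 rose and 0 fell, with a median of 0.85. Tgfbr2, a receptor, had 2.01 and 3.24 TPM in the fusion libraries, against 0.104 and 0.324 TPM in the control libraries (log2 change 1.56, adjusted p = 0.0113, limma). Ccn1, a matricellular target of the pathway, fell, with 3.60 and 2.89 TPM in the fusion libraries against 19.2 and 37.1 TPM in the control libraries (log2 change -2.71, adjusted p = 0.00844, limma). Smad2, a signal carrier of the pathway, fell by 1.62 on the log2 scale. Tgfb2, a ligand, fell too and had 0.172 and 3.03 TPM in the fusion libraries, against 7.56 and 11.2 TPM in the control libraries. Ccn1, Tgfb2 and Smad2 did not pass after rescaling.

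Astrocyte markers had 9 of 10 tested, 0 higher and 4 lower, and summed to 50.9 and 84.2 TPM in the fusion libraries and 256 and 308 TPM in the control libraries. Their median log2 change was -1.03, above the -1.41 of all genes tested, and after rescaling 2 rose and 1 fell. Neuron markers had 9 of 12 tested, 0 higher and 6 lower, and summed to 63.0 and 64.0 TPM in the fusion libraries and 271 and 270 TPM in the control libraries. After rescaling 1 rose and 2 fell, with a median change of -0.37. For both lists the shares over all genes tested were 4.95% higher and 51.3% lower on deposited TPM. After rescaling these shares were 14.3% and 18.6%.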
